A study of Homo sapiens with 8 samples.

Results

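The ribosomal protein genes were examined for nearby binding of NKRF, the NF-kB repressing factor, in the breast cancer subline MDA-MB-231-P3. Members were all protein-coding genes of the RefSeq table whose symbol begins with RPL, RPS, MRPL or MRPS, without those beginning RPS6K, which encode kinases. There were 169 of them among 20050 protein-coding genes placed on a chromosome: 92 with the cytosolic prefixes RPL and RPS, and 77 with the mitochondrial prefixes MRPL and MRPS. The name rule also takes in 15 cytosolic-named symbols that are readthrough genes, paralogous copies or a binding protein, and without these the cytosolic set has 77 members. NKRF was measured by chromatin immunoprecipitation and sequencing in 2 libraries from cells labelled control and 2 from cells in which siRNA delivered with Lipofectamine targeted Uc003xsl.1, a long non-coding RNA (the si-Uc003xsl.1 group). What the control cells were transfected with, if anything, is not given in the sources used here. MDA-MB-231-P3 is a highly metastatic subline of a triple-negative breast cancer line, all 4 libraries come from it, and all used 1 antibody. The level of Uc003xsl.1 after transfection was not analysed here. A decoy role towards NKRF is given to the RNA in the title of the series, and the design compares where NKRF sits on the genome with and without its depletion.

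A ribosome is built from ribosomal RNA and a fixed set of proteins, each encoded in the nucleus by its own gene. The cytosolic ribosome translates nuclear mRNAs, and its proteins (RPL for the large subunit, RPS for the small one) are made in equal amounts from highly transcribed, mostly short genes whose introns often carry small nucleolar RNAs. Their mRNAs begin with a run of pyrimidines, the terminal oligopyrimidine (TOP) tract, through which growth signals control their translation. The mitochondrial ribosome translates the few proteins encoded in mitochondrial DNA, and its MRPL and MRPS proteins are imported from the cytosol. NKRF is a nucleolar protein known both as a repressor of NF-kB target genes and as a factor in ribosomal RNA processing.

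The 4 lists of called peaks differ in depth and calling. The NKRF libraries held 8250475 to 19335431 tags after duplicate filtering, and the lists held 7444 and 902 peaks in the controls and 7577 and 4463 after si-Uc003xsl.1, each in order of replicate number. Control replicate 2 was called by another program version and threshold than the rest, so replicate and processing cannot be told apart in the control group. Peaks of control replicate 1 were mostly at the smallest tag count, with 5067 of 7444 at 6 tags, and the median false discovery rate that its caller gave was 100%. Separate cultures for the replicates are not stated, so p-values measure only the spread between these libraries. Peak coordinates are those of the authors' lists, on GRCh38. A gene without a peak is one without a called peak at this depth, not one shown to lack NKRF.

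In control cells almost no ribosomal protein gene had an NKRF peak nearby, and such peaks were rare at all genes. Control replicate 1 had 0 of 169 members with a peak summit within 1 kb of either gene end, where 0.529% of all protein-coding genes had one, and 0 of 169 within 10 kb, where 4.99% did. Control replicate 2 had 0 within 1 kb (all genes 0.120%) and 1 within 10 kb (all genes 1.04%). That 1 gene was MRPS14, which encodes a small-subunit protein of the mitochondrial ribosome, with a peak on chromosome 1 at 175033082 to 175033280. The peak was 199 bp wide with a pileup of 7, and its summit lay 9729 bp upstream of the gene start. A count of 0 in 169 genes allows a share of up to 1.78% when taken as under 3 counts, or 2.16% as the upper bound of the exact Clopper-Pearson 95% interval, from counting error alone. Both are below the 4.99% of all genes within 10 kb in control replicate 1, and these bounds take genes as independent. The windows of members are narrower, with a median of 26.2 kb against 40 kb for other genes. Among other genes of 13274 bp or less, 2.61% had a summit within 10 kb in this list, and the difference from members was not tested. In control replicate 2 the share of these short genes within 10 kb was 0.583%, against 0.592% of members. The members nearest to a peak of control replicate 1 were MRPS27 at 16404 bp, RPL39L at 17914 bp and MRPL13 at 19327 bp.

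After si-Uc003xsl.1, ribosomal protein genes had peaks at their ends about as often as other genes. Within 1 kb, 9 of 169 members had a summit in replicate 1 (5.33%, exact Clopper-Pearson 95% interval 2.46 to 9.87) against 6.54% of all protein-coding genes, and 9 of 169 in replicate 2 (5.33%) against 5.31%. Within 10 kb it was 30 of 169 in replicate 1 (17.8%, interval 12.3 to 24.4) against 16.0%, and 20 of 169 in replicate 2 (11.8%, interval 7.38 to 17.7) against 12.7%. Each interval holds the share of all genes and covers counting error only, taking genes as independent. In all 4 lists together, 44 of 169 members (26.04%) had a summit within 10 kb and 125 had none, and 30.5% of other protein-coding genes had one.

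Within 1 kb, more mitochondrial than cytosolic members had a peak in both si-Uc003xsl.1 lists, and within 10 kb the order in replicate 2 depended on the setting. Within 1 kb, 7 of 77 mitochondrial members (9.09%, interval 3.73 to 17.8) and 2 of 92 cytosolic members (2.17%, interval 0.264 to 7.63) had a summit in replicate 1. In replicate 2 these were 6 of 77 (7.79%, interval 2.91 to 16.2) and 3 of 92 (3.26%, interval 0.678 to 9.23). The intervals of the 2 sets overlap in each library, and no test compares genes within a library. Each of these intervals also holds the share of all protein-coding genes, 6.54% in replicate 1 and 5.31% in replicate 2. Within 10 kb the shares were 22.1% and 14.1% in replicate 1 (all genes 16.0%). In replicate 2 they were 13.0% and 10.9% (all genes 12.7%), for 10 of 77 and 10 of 92 genes. Without the 15 paralogs, readthrough genes and the like, replicate 2 had 10 of 77 in each set within 10 kb. With equal list lengths it had 1 of 77 mitochondrial (1.30%) and 2 of 92 cytosolic members (2.17%), against 2.96% of all genes. Mitochondrial members are longer, with a median length of 8618 bp against 5136 bp, and had a median of 1 end of another protein-coding gene within their 10-kb windows against 2 for cytosolic members.

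**Figure D1:**
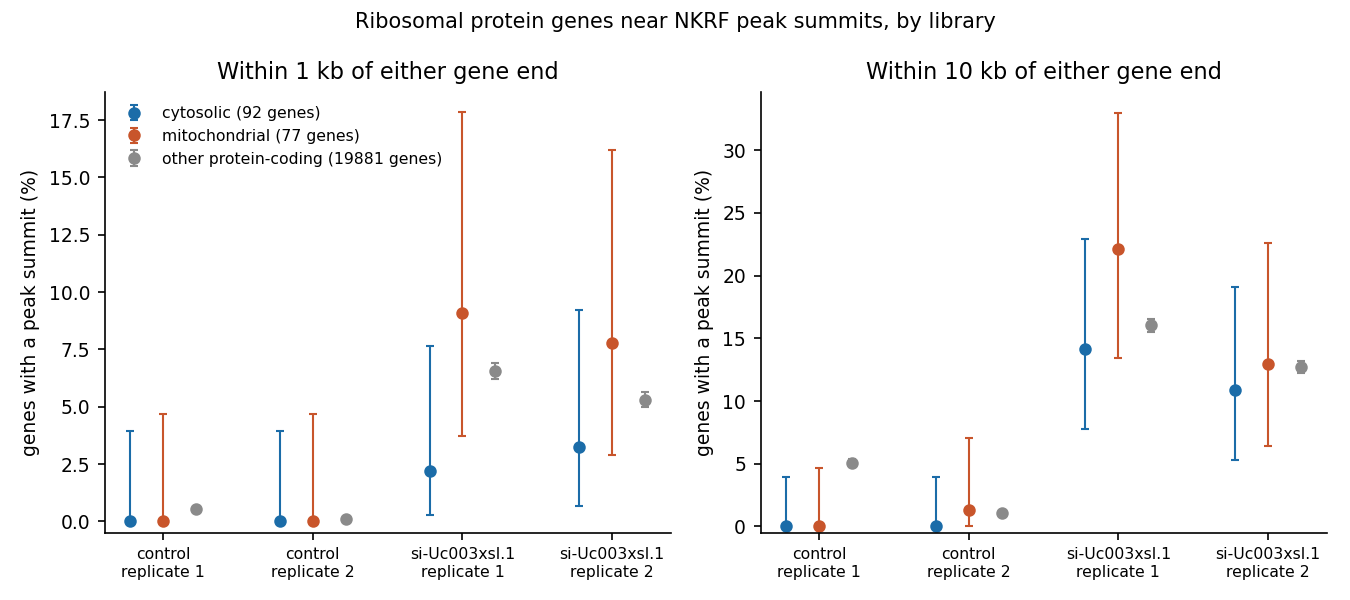
Percent of genes with an NKRF peak summit within 1 kb (left) or 10 kb (right) of either gene end in each of the 4 libraries, for cytosolic members, mitochondrial members and other protein-coding genes. Points are shares and bars exact Clopper-Pearson 95% intervals; members sit at 0 in both controls, apart from 1 mitochondrial gene within 10 kb, and mitochondrial points lie above cytosolic ones after si-Uc003xsl.1.

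Both sets had larger shares after si-Uc003xsl.1 than in controls, and so did other genes, whose shares within 1 kb were 0.533% and 0.121% in the controls and 6.55% and 5.31% after si-Uc003xsl.1. The mean share within 1 kb was 0% in both controls and 2.72% ± 0.77 (SD, n = 2) after si-Uc003xsl.1 for cytosolic members, and 0% against 8.44% ± 0.92 (SD, n = 2) for mitochondrial members. Within 10 kb it was 0% against 12.5% ± 2.31 (SD, n = 2) for cytosolic and 0.65% ± 0.92 against 17.5% ± 6.43 (SD, n = 2) for mitochondrial members. In each of these 4 comparisons the si-Uc003xsl.1 libraries did not overlap the controls, and the two-sided exact permutation p was 0.333, the smallest that 2 libraries per group allow. The excess of members over other genes within 1 kb changed by -0.28 percentage points (exact permutation p = 1, n = 2 per group) and within 10 kb by 3.17 points (exact permutation p = 0.667, n = 2 per group). The SDs of these excesses were 0.292 and 0.875 points within 1 kb and 3.24 and 1.81 points within 10 kb, in control and si-Uc003xsl.1 libraries. The change within 1 kb was smaller than the spread in either group, and that within 10 kb was smaller than the spread between the controls but larger than that between the si-Uc003xsl.1 libraries. The change within 1 kb was 0.34 points without si-Uc003xsl.1 replicate 1, and that within 10 kb was 5.46 points without control replicate 2 and 0.88 points without control replicate 1.

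Equal list lengths removed most of the member genes. With the 902 peaks of lowest p-value per list, 3 members were left within 1 kb in si-Uc003xsl.1 replicate 1 (MRPL41, MRPL57 and MRPS25, against 1.96% of all genes) and 1 in replicate 2 (MRPS17, against 1.41%). Cytosolic members had none, so their difference within 1 kb was 0, and the mitochondrial difference fell from 8.44 to 2.60 percentage points. Within 10 kb, 7 members were left in si-Uc003xsl.1 replicate 1 (all genes 3.55%) and 3 in replicate 2 (all genes 2.96%), and the differences were then 2.17 points for cytosolic and 3.25 points for mitochondrial members. For the mitochondrial set the groups then touched, at 1.30% in both control replicate 2 and si-Uc003xsl.1 replicate 2 (exact permutation p = 0.667, n = 2 per group). RPL23A was the member in both of these shortened lists. Control replicate 1, cut to the same length, had 0 members within 1 kb (all genes 0.0698%) and 0 within 10 kb (all genes 0.658%).

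All member summits within 1 kb of a gene end lay within 0.5 kb of it, in both sets. The cytosolic shares were the same at 0.5 and 1 kb, 2.17% in si-Uc003xsl.1 replicate 1 and 3.26% in replicate 2. In si-Uc003xsl.1 replicate 1 the mitochondrial share stayed at 9.09% from 0.5 to 2 kb, so each of those 7 summits lay within 0.5 kb of a gene end, while the share of other genes grew from 4.80% to 8.24%. The same held in replicate 2, at 7.79% from 0.5 to 2 kb, where other genes went from 3.87% to 6.75%. At 100 kb, 57.6% of cytosolic and 61.0% of mitochondrial members had a summit in replicate 1 (all genes 56.6%), and 51.1% and 39.0% in replicate 2 (all genes 43.4%). In the controls the shares at 100 kb were 8.70% and 13.0% in replicate 1 (all genes 28.5%) and 4.35% and 7.79% in replicate 2 (all genes 7.00%). In control replicate 1 both sets lay farther from peaks than other genes, with a median distance of 539 kb for cytosolic and 358 kb for mitochondrial members against 279 kb for other genes. The other libraries had no such gap for both sets: 1447 and 1327 kb against 1318 kb in control replicate 2, 77.5 and 76.8 kb against 77.3 kb in si-Uc003xsl.1 replicate 1, and 95.3 and 143 kb against 134 kb in si-Uc003xsl.1 replicate 2.

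**Figure D2:**
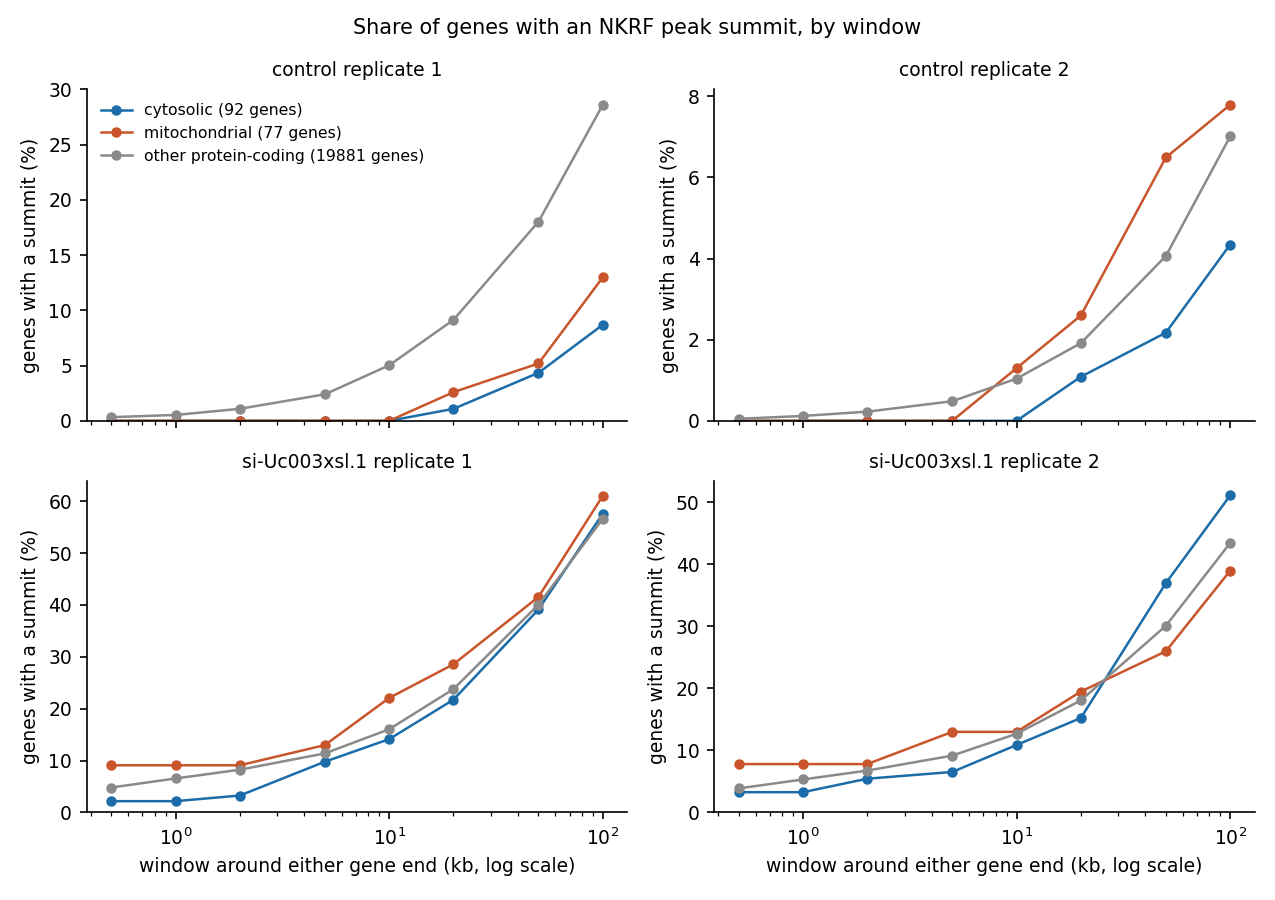
Percent of genes with an NKRF peak summit as the window around either gene end widens from 0.5 to 100 kb (log axis), 1 panel per library with its own vertical scale. Members lie below other genes at every window in control replicate 1, and in both si-Uc003xsl.1 libraries the mitochondrial line starts above and the cytosolic line below that of other genes.

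Ribosomal proteins are encoded by short genes, whose windows merge. Members had a median length of 6173 bp against 24382 bp for other protein-coding genes. Among 6859 other genes no longer than 13274 bp, the 75th percentile of the members, 5.42% and 4.48% had a summit within 1 kb in si-Uc003xsl.1 replicates 1 and 2, and 13.8% and 11.2% within 10 kb. Within 1 kb the members' 5.33% lay just under the short-gene share in replicate 1 and above it in replicate 2. Within 10 kb members lay above the short genes in both, with 17.8% (interval 12.3 to 24.4) and 11.8% (interval 7.38 to 17.7). These intervals hold the short-gene shares, and the differences were not tested. In control replicate 1, 2.61% of the short genes had a summit within 10 kb against 0 members.

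Among cytosolic ribosomal protein genes, the peak with the most tags lay over the start of RPL10A, a large-subunit gene. It spanned 35468104 to 35469364 on chromosome 6 in si-Uc003xsl.1 replicate 1, was 1261 bp wide and held 92 tags, with its summit 149 bp upstream of the start. Its tag count was at percentile 99.7 and its width at percentile 99.4 of that list, and replicate 2 and both controls had no peak within 10 kb of the gene. RPL13, a large-subunit gene that hosts the small nucleolar RNA SNORD68, had a peak of replicate 1 on chromosome 16 at 89560206 to 89561065, 860 bp wide with 53 tags and its summit 190 bp upstream of the start. RPS21, a small-subunit gene, had one of replicate 2 on chromosome 20 at 62386548 to 62387413. That peak was 866 bp wide with 55 tags, and its summit lay 35 bp upstream of the start. All 3 peaks covered the whole promoter window shown here, 250 bases before to 50 after the annotated start. The sequences show the starts under the 3 widest cytosolic peaks within 1 kb, from RefSeq on GRCh38.p14. Capitals mark the unbroken pyrimidine run that holds the start base, or the start base alone where it is a purine.
RPL10A (chr6:35468151-35468450, plus strand): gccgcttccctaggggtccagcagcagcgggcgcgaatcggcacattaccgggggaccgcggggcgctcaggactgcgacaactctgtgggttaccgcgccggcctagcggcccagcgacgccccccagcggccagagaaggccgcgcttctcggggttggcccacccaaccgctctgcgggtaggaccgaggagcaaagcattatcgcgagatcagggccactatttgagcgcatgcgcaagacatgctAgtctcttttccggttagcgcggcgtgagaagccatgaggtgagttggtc
RPL13 (chr16:89560407-89560706, plus strand): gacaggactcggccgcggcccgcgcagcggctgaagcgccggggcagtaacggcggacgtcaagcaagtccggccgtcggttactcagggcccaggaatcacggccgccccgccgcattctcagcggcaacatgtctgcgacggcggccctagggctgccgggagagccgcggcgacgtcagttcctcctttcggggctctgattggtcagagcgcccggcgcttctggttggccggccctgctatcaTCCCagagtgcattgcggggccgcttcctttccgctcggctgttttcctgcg
RPS21 (chr20:62386853-62387152, plus strand): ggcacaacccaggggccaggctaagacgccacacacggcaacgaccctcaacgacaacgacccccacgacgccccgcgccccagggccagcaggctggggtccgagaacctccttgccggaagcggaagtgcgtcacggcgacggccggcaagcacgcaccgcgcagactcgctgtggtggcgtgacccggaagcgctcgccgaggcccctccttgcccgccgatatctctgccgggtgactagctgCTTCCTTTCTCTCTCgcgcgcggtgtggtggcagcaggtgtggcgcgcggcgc

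Only RPS21 of these has a long pyrimidine run at its annotated start, of 15 bases, the form that TOP mRNAs take. RPL13 has a run of 4 bases, and RPL10A starts at an A in this annotation. Peaks at the other cytosolic genes were smaller. RPL6, a large-subunit gene, had a replicate 2 peak of 19 tags and 397 bp on chromosome 12 at 112419082 to 112419478, with the summit 491 bp outside the start-side end of the gene and -7884 bp from the annotated transcript start. That summit lay closer to PTPN11, which encodes the phosphatase SHP2, at 379 bp. RPL31 had a replicate 2 peak of 8 tags and 302 bp on chromosome 2 at 101019877 to 101020178, 313 bp beyond its far end and 17748 bp from its start. RPL26L1, a copy of RPL26, had a peak in replicate 1 with 19 tags and 267 bp on chromosome 5 at 172958650 to 172958916. It counted only within 10 kb of a gene end (4722 bp), but its summit lay 87 bp downstream of the annotated transcript start.

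Of the mitochondrial ribosomal protein genes, MRPL19 was the member with a summit within 1 kb of its start in both si-Uc003xsl.1 libraries. MRPL19 encodes a large-subunit protein. Its peak on chromosome 2 held 31 tags over 609 bp in replicate 1 (75646712 to 75647320) and 24 tags over 476 bp in replicate 2 (75646914 to 75647389), and no peak lay within 10 kb in either control. The 2 peaks overlapped by 407 bp, with summits 100 bp and 466 bp downstream of the start, and only that of replicate 1 reached the start base. The tallest mitochondrial peak at a start was that of MRPS25, a small-subunit gene linked to inherited mitochondrial disease. It lay on chromosome 3 at 15064863 to 15065483 in replicate 1, 621 bp wide with 39 tags, and its summit was 198 bp downstream of the start. Replicate 2 had no peak within 10 kb of MRPS25. The starts of both genes are shown as the recurring member and the one with the most tags. Capitals mark the annotated start base, which is a purine in both.
MRPL19 (chr2:75646533-75646832, plus strand): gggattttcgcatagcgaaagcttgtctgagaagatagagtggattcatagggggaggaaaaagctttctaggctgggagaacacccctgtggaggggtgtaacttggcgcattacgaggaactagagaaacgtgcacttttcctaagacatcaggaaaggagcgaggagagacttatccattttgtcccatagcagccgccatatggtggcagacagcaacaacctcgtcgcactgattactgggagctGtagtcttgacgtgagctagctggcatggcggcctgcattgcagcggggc
MRPS25 (chr3:15065266-15065565, minus strand): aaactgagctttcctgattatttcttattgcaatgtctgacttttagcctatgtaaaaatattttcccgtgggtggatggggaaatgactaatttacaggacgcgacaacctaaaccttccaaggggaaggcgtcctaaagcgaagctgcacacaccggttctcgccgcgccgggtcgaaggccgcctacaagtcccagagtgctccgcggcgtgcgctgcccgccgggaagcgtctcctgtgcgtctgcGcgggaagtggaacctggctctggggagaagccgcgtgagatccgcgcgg

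Both starts are a G in this annotation, and the replicate 1 peaks covered 121 and 218 of the 300 bases shown for MRPL19 and MRPS25. The other large-subunit genes with a summit within 1 kb in replicate 1 were MRPL41, MRPL11 and MRPL57, all 3 with summits inside the gene. MRPL41 had 38 tags over 599 bp on chromosome 9 at 137551783 to 137552381, 241 bp from the start. MRPL11 had 36 tags over 560 bp on chromosome 11 at 66438396 to 66438955, 231 bp from the start. MRPL57 had 25 tags over 526 bp on chromosome 13 at 21176624 to 21177149, 432 bp from the start. In replicate 2 they were MRPL12, MRPL40 and MRPL52. MRPL12, whose protein sits in the stalk of the large subunit and also binds the mitochondrial RNA polymerase, had 38 tags over 749 bp on chromosome 17 at 81702881 to 81703629, with the summit 172 bp upstream of the start. MRPL40 had 13 tags over 272 bp on chromosome 22 at 19432242 to 19432513, 121 bp upstream of its start. MRPL52 had 7 tags over 141 bp on chromosome 14 at 22830019 to 22830159, 195 bp inside the gene.

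Small-subunit genes made up the rest. In replicate 1, MRPS33 had 11 tags over 236 bp with the summit 17 bp upstream of the start, on chromosome 7 at 141014859 to 141015094. MRPS2 had 12 tags over 198 bp, 402 bp outside the start-side end of the gene and -1119 bp from the annotated transcript start, on chromosome 9 at 135499422 to 135499619, and this summit was closer to PIERCE1 (306 bp). In replicate 2, MRPS17 had 20 tags over 367 bp on chromosome 7 at 55951652 to 55952018, 78 bp upstream of the start. MRPS35 had 11 tags over 219 bp on chromosome 12 at 27710955 to 27711173, 187 bp inside the gene. Large- and small-subunit genes were both represented, with 4 and 3 genes in replicate 1 and 4 and 2 in replicate 2.

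**Figure D3:**
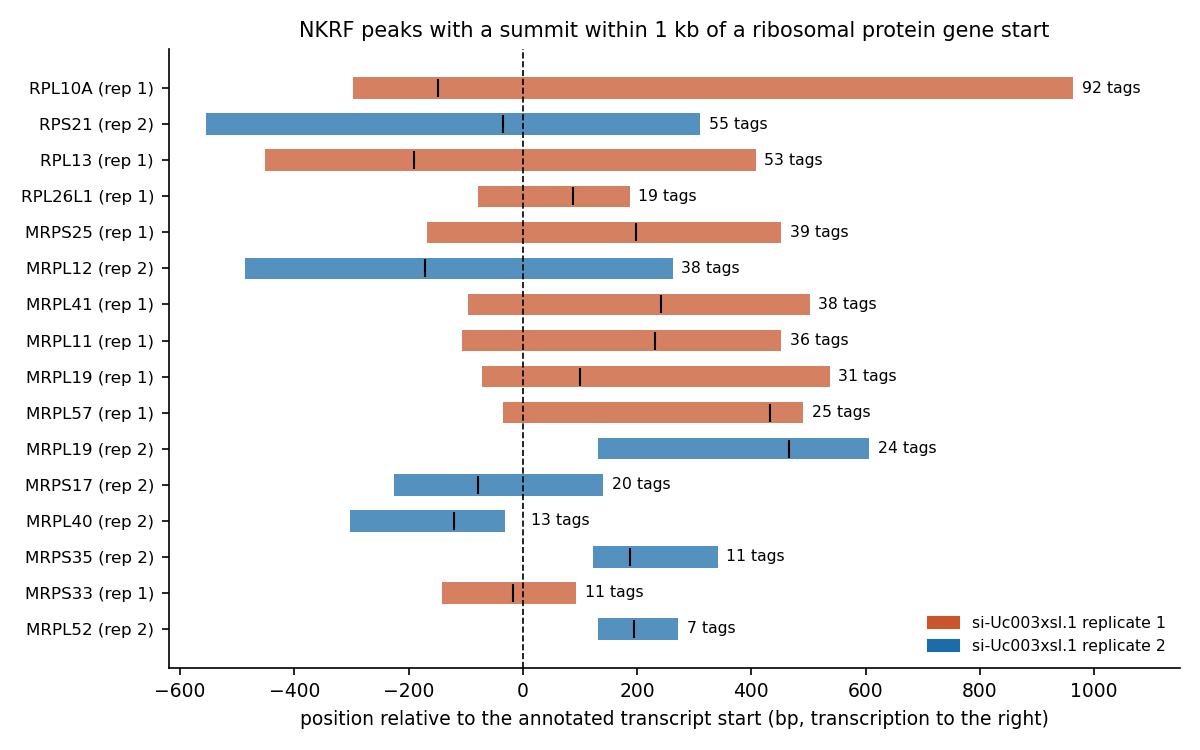
NKRF peaks with a summit within 1 kb of the annotated transcript start of a ribosomal protein gene, drawn as bars from peak start to peak end in bp relative to that start, with transcription to the right. Ticks mark summits, colours the si-Uc003xsl.1 replicate, and labels the tags; only MRPL19 appears in both replicates, and RPL10A has the longest bar.

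Peaks within 1 kb mostly lay at the start-side end of genes rather than at the far end, as they did for other genes of the si-Uc003xsl.1 lists. Of the 18 pairs of a member and a peak within 1 kb, 17 were nearer the start-side end and 1, at RPL31, nearer the far end. Among the 17, the RPL6 and MRPS2 summits lay -7884 bp and -1119 bp from the annotated transcript start. In si-Uc003xsl.1 replicate 1 it was 9 of 9 member pairs against 85.5% of 1096 pairs of other genes with an annotated start, and in replicate 2 it was 8 of 9 against 88.2% of 854. The 142 members with an annotated start gave the same picture when only the start was used. Within 1 kb of it, 3 of 73 cytosolic and 6 of 69 mitochondrial members had a summit in replicate 1 (all genes 6.06%), and 1 of 73 and 6 of 69 in replicate 2 (all genes 4.82%). The controls had 0 such members in replicate 1 (all genes 0.170%) and 0 in replicate 2 (all genes 0.0947%).

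Between 1 and 10 kb, the peaks counted for ribosomal protein genes mostly had their summit closer to a neighbouring gene. Of 21 such pairs at cytosolic members, 17 had a summit closer to an end of another protein-coding gene, and of 18 at mitochondrial members it was 15. How often this holds for pairs of other genes is not given here, so it is not shown to be particular to members. In 20 of the 39 member pairs the summit lay within 1 kb of another gene's end. The cytosolic exceptions were RPL3, RPS23, RPL26L1 and RPL21. RPL3 had a replicate 1 peak of 15 tags on chromosome 22 at 39311734 to 39312083, 1094 bp beyond its far end. RPS23 had a replicate 2 peak of 11 tags inside the gene, 1262 bp from its far end, and RPL21 a replicate 1 peak of 6 tags, 7890 bp upstream. The mitochondrial exceptions were MRPS10 (9 tags in replicate 1, 5702 bp), MRPL17 (7 tags in replicate 2, 4535 bp) and MRPS14 in control replicate 2.

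In replicate 1 the summit near RPL19 lay 547 bp from CACNB1, a calcium channel subunit gene, with 33 tags, and that near RPS16 lay 132 bp from PLEKHG2 with 17 tags. The summit near RPS27L lay 243 bp from LACTB with 9 tags. RPL24 and RPL10 had summits at 4657 bp and 6964 bp, inside ZBTB11 and DNASE1L1. In replicate 2 the peaks near RPL35, RPL18 and RPS3 lay inside ARPC5L, SPHK2 and KLHL35. Among mitochondrial members, the widest such peak was that near MRPL55, with 80 tags over 1241 bp at 4137 bp from the gene and 777 bp from C1orf35. MRPS7 had 61 tags over 851 bp at a summit 87 bp from MIF4GD, a translation regulator gene, and MRPL44 had 27 tags at a summit 87 bp from WDFY1. Further ones in replicate 1 were near MRPS34, MRPS12 and MRPL27, at 9375 to 9992 bp, and in replicate 2 near MRPS28 and MRPL54 with 6 and 7 tags. In 0 of the 57 pairs was a small nucleolar RNA gene the nearest non-coding gene at 500 bp or less.

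**Figure D4:**
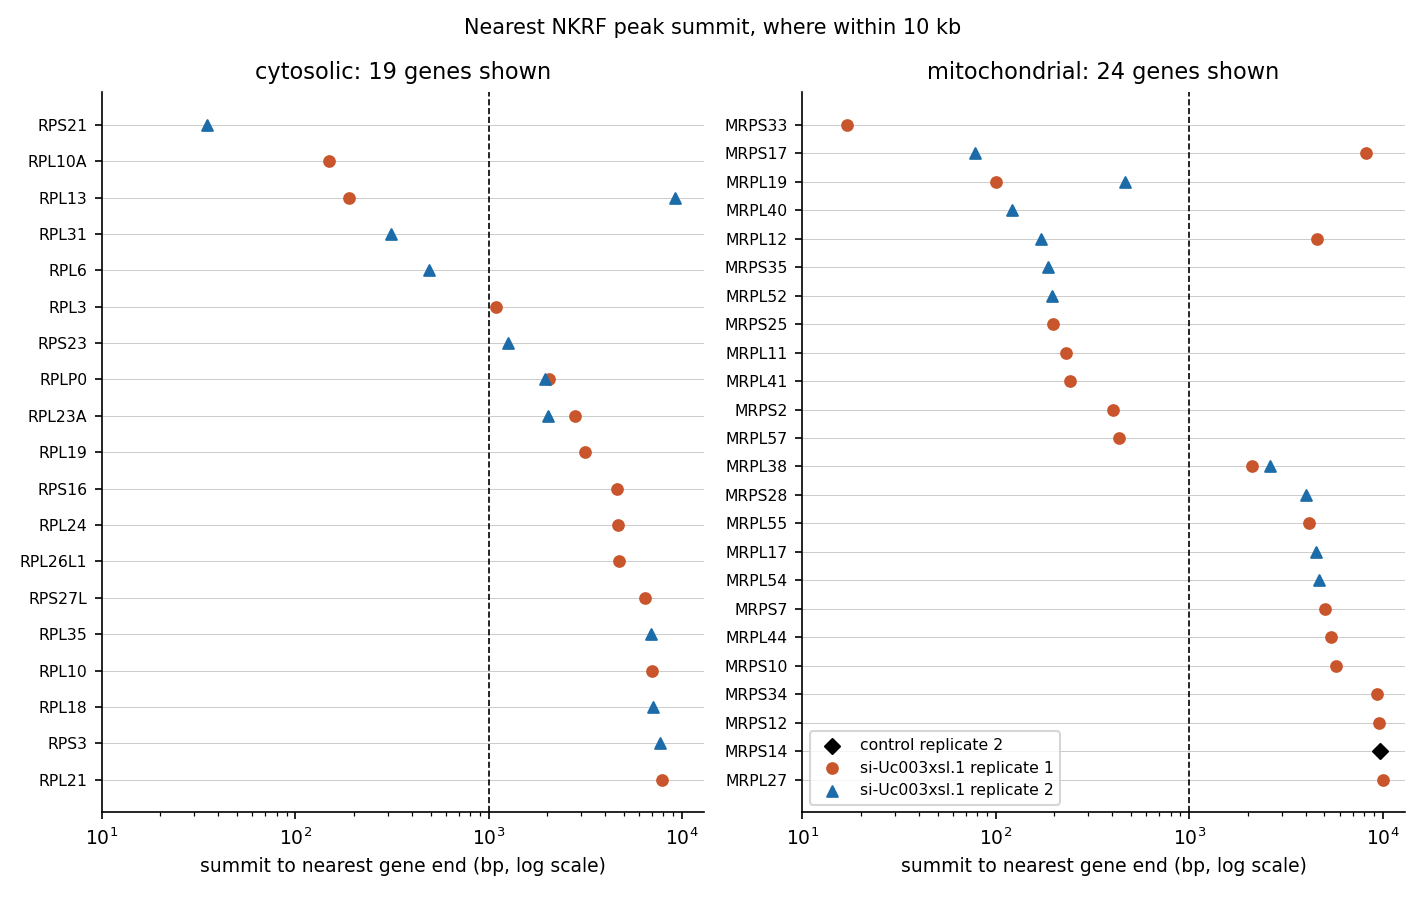
Distance in bp (log axis) from the nearest NKRF peak summit to the nearer end of each ribosomal protein gene with a summit within 10 kb, for 19 of the 20 cytosolic (left) and all 24 mitochondrial members (right), with 1 symbol per library and a dashed line at 1 kb. Control replicate 1 has no point and control replicate 2 has 1, at MRPS14; 7 genes carry symbols of both si-Uc003xsl.1 replicates.

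Of the members, 7 had a summit within 10 kb in both si-Uc003xsl.1 lists, which is 23.3% of the 30 in replicate 1 and 35.0% of the 20 in replicate 2. Over all protein-coding genes 588 of 20050 (2.93%) had one in both, against 4.14% of members. The 7 were RPLP0, RPL13 and RPL23A of the cytosolic set and MRPL12, MRPL19, MRPL38 and MRPS17 of the mitochondrial set. In 3 of them peaks of the 2 libraries overlapped, and in 4 they did not.

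Besides MRPL19, the overlapping pairs were at neighbours of RPLP0 and RPL23A. RPLP0 encodes the base of the stalk that recruits translation factors, and the joined span of its 2 peaks, on chromosome 12 at 120194339 to 120195031, held 46 and 40 tags in replicates 1 and 2, with 604 bp in common. The summits lay 57 bp and 37 bp from an end of GCN1, a gene of the amino acid starvation response, and 2041 bp and 1947 bp from RPLP0. RPL23A encodes a protein at the exit of the nascent chain tunnel, and the joined span of the overlapping pair lay on chromosome 17 at 28716903 to 28717667. The peaks held 31 and 19 tags with summits inside RAB34, a gene of membrane traffic, 2788 bp and 2734 bp from RPL23A. RPL23A had further peaks within 10 kb, of 27 tags at NEK8 in replicate 1 and of 22 tags in RAB34 in replicate 2.

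In the other 4 genes the peaks of the 2 libraries did not overlap, with gaps that differed widely. At RPL13 the start peak of replicate 1 was 14855 bp away from the replicate 2 peak, which held 34 tags at CPNE7. At MRPS17 the start peak of replicate 2 was 12354 bp away from a replicate 1 peak of 19 tags at NIPSNAP2. At MRPL12 the start peak of replicate 2 was 8083 bp away from the nearest replicate 1 peak, of 29 tags beside SLC25A10, a mitochondrial carrier gene. At MRPL38 the peaks, of 38 and 17 tags, both lay in TRIM65 and were 324 bp apart. Within 1 kb, MRPL19 alone counted in both lists, 1 of 169 members against 0.663% of all genes.

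Peaks at the ends of ribosomal protein genes were larger by median than those at other genes in replicate 1 and near them in replicate 2, and these sizes were not tested. In si-Uc003xsl.1 replicate 1 the 9 peaks within 1 kb of members held 11 to 92 tags with a median of 36, against a median of 24 at 1201 peaks near other genes, and had a median width of 599 bp against 430 bp. In replicate 2 the 9 held 7 to 55 tags with a median of 19 against 19, and had a median width of 367 bp against 393 bp. Fold enrichment over input, a ratio from the authors' caller, had medians of 5.90 and 7.48 at members against 5.90 and 6.41 at other genes. Of all 56 member peaks in these 2 lists, 23 were 500 bp or wider, and 9 of these lay within 1 kb. Within 10 kb it was 18 of 34 member peaks in replicate 1, against 620 of 2468 near other genes. In replicate 2 it was 5 of 22 against 429 of 1876. Within 1 kb it was 7 of 9 against 510 of 1201 in replicate 1, and 2 of 9 against 341 of 972 in replicate 2. The caller's false discovery rate ranged from 25.8% to 32.1% at members in replicate 1 and from 10.35% to 25.7% in replicate 2, so 0 of the 56 peaks reached 5%. High rates were common to these lists, whose medians over all peaks were 30.75% and 10.96%. For peaks within 10 kb of other genes the range was 10% to 100% in replicate 1 and 0% to 43.6% in replicate 2.

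**Figure D5:**
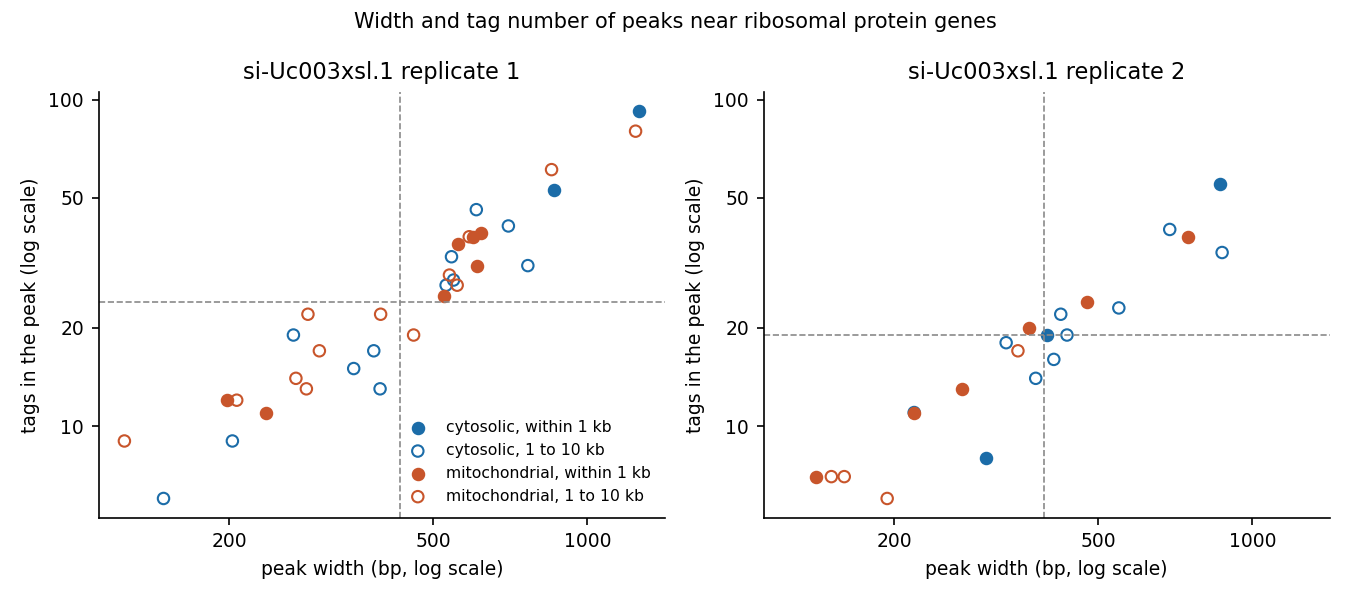
Tags in each peak against peak width in bp (both log axes) for peaks within 10 kb of cytosolic and mitochondrial members in si-Uc003xsl.1 replicate 1 (left) and replicate 2 (right); filled symbols lie within 1 kb of a gene end. Dashed lines are medians of peaks within 1 kb of other genes, 430 bp and 24 tags on the left and 393 bp and 19 tags on the right, and member peaks fall on both sides of them.

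The 2 sets of promoters differed most in their TOP-like starts. In the RefSeq promoters of 300 bases, 142 of 169 members were matched, among 15843 protein-coding genes. A TOP-like start, meaning a C at the annotated start followed by 4 or more pyrimidines, occurred in 45 of 73 cytosolic promoters (61.6%), 5 of 69 mitochondrial ones (7.25%) and 4.60% of all. Of the 45 cytosolic promoters with it, only that of RPS21 had a summit within 1 kb of the start in either si-Uc003xsl.1 list, as did 3 of the 28 cytosolic promoters without the run. Among other genes it was 75 of 679 with such a start (11.05%) and 10.3% of those without, and these shares were not tested. RPL10A, RPL13 and RPL26L1 have no such run at the annotated base. Counted also where it began near that base, the run occurred in 60 of 73 cytosolic and 22 of 69 mitochondrial promoters and 33.8% of all. RPL10A then had it as well as RPS21, which made 2 of the 4 cytosolic promoters with a summit and 58 of the 69 without. Among mitochondrial members with a summit within 1 kb of the start, MRPS33 was the 1 of 11 with such a run at the annotated base, and 4 of 11 had it there or near it.

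Short motifs were searched on both strands of the same 300 bases. CCGGAAG, a core of ETS-family sites, occurred in 23 of 73 cytosolic and 29 of 69 mitochondrial promoters (31.5% and 42.0%) against 14.2% of all. It was found in 4 of the 15 members with a summit within 1 kb of the start and in 48 of the 127 without one. RPS21 has 2 copies, and RPL10A, RPL13, MRPL19 and MRPS25 have none. GGGCGG, a core of SP1-family sites, was found in 6 of those 15 (40%) and in 75 of the 127 (59.1%), where other genes with a summit at the start had it in 79.3% and all promoters in 58.5%. TATAAA, the TATA box, occurred in 0 of the 15 and in 9.63% of all. TCCTCTG, part of the negative regulatory element of IFNB1 that NKRF was described to bind, occurred in 0 of the 15, in 4 of the 127 and in 8.39% of all. No motif contains another, though neighbouring matches can share bases. Other genes with a summit at the start were rich in G and C, with a median of 70.3% against 62.0% for those without. For cytosolic members this was 67.3% in 4 promoters against 58.3% in 69, and for mitochondrial members 58.7% in 11 against 60.7% in 58.

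Other genes of translation were taken as 3 short lists. Of 8 ribosomal proteins with names outside the rule, 2 had a summit within 1 kb in si-Uc003xsl.1 replicate 1 (all genes 6.54%). Within 10 kb it was 5 of the 8 in that library (all genes 16.0%). Of the mitochondrial ribosomal proteins among them, AURKAIP1 and GADD45GIP1 had a summit within 1 kb, at 33 bp with 15 tags and at 543 bp with 19 tags. PTCD3 and DAP3 had theirs at 3926 bp and 4936 bp in the same library, and none of these genes had one within 10 kb in replicate 2 or the controls. Of 17 cytosolic translation and related genes with TOP mRNAs, 1 had a summit within 10 kb in replicate 1 (EIF3L, all genes 16.0%) and 4 in replicate 2 (EEF1A1, EIF4B, NPM1 and PABPC1, all genes 12.7%). EEF1A1, the elongation factor that brings tRNAs to the ribosome, had 23 tags at 472 bp, and PABPC1, a poly(A)-binding protein, 26 tags at 764 bp. EIF3H had a peak of 6 tags in control replicate 1, at 2810 bp. Of 19 mitochondrial translation factors, 3 (15.8%) had a summit within 10 kb in each si-Uc003xsl.1 list, near the shares of all genes (16.0% and 12.7%). They were MTG1, MTG2 and NSUN4 in replicate 1, and GFM2, MTG2 and MTRF1 in replicate 2. MTG2, a GTPase of mitochondrial ribosome assembly, had 36 tags at 2824 bp and 23 tags at 102 bp, at separate places. Of this list, GFM1 had one in a control library, with 6 tags at 938 bp in replicate 1.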

How the data were processed

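NKRF immunoprecipitates and inputs of MDA-MB-231-P3 cells were sequenced, and each NKRF library has its own peak list. Input libraries were not analysed here. Bowtie2 and the build GRCh38.p11 are named in the submitters' processing notes, with CASAVA 1.4. Peaks were called per library against 1 input library, per the file headers. MACS 1.4.2 made the lists of control replicate 1 and of the si-Uc003xsl.1 group (p-value threshold 1e-04, 50-bp tags), and that of control replicate 2 came from MACS 2.1.1.20160309 (q-value threshold 0.05, 105-bp tags), per the file headers. The MACS 1.4.2 lists give tag counts without normalization, a score (the negative log10 of p, times 10), a fold enrichment ratio over input and a false discovery rate in percent, as deposited by the authors. Control replicate 2 has the pileup signal, the fold ratio and -log10 of p and q, as deposited by the authors. All were used as the authors' values, unscaled between lists, to describe or rank peaks.

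Distances were computed in Python 3.11.15 (SciPy 1.17.1) from each summit to both ends of 20050 RefSeq protein-coding genes (GRCh38.p14), whose coordinates are not printed. The MACS 1.4.2 summit was read as an offset counted from 1 at the peak start. Distances were tested on simulated peaks. Promoters (300 bases) and starts came from RefSeq for 142 members, matched by gene identifier. Shares have exact Clopper-Pearson 95% intervals. Groups and replicate numbers came from sample titles, and group differences were tested by exact permutation over 3 splits of 4 libraries. Members and lists were chosen with earlier results of these data known. Named genes followed a rule: members with a summit within 1 kb with their values, those up to 10 kb by library, and those in 2 or more lists in full. EIF3H, EEF1A1, PABPC1 and the other list genes were named where they had a peak. Some items are not reported here by name, though counts include them. Peaks on scaffolds (24, 0, 40 and 26 in the 4 lists) were not used.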

Additional observations from a re-analysis of the deposited data

How the results depend on the processing

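The differences between si-Uc003xsl.1 and control libraries kept their direction for both sets and both windows under every alternative run, except that the cytosolic difference within 1 kb was 0 with equal lists of 902 peaks. Leaving out 1 library gave 2.17 to 3.26 points for cytosolic and 7.79 to 9.09 points for mitochondrial members within 1 kb, and 10.9 to 14.1 and 12.3 to 21.4 points within 10 kb. The change in the excess of members over other genes within 10 kb stayed positive, from 0.88 to 5.46 points without 1 library and 0.26 points with equal lists. Within 1 kb it ranged from -0.90 to 0.34 points without 1 library and turned from -0.28 to 0.33 points with gene starts alone, 0.24 with the stricter member set and 0.54 against short genes; the cause was not tested. With the replicate number as a replicate block, the paired values were the same (2.72 points for cytosolic members within 1 kb), and the labels do not say that numbers pair the libraries. The depth and threshold of each list limit what a missing peak can show, and with 2 libraries per group no test could reach 0.05.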

Other observations

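Peaks deep inside members, more than 10 kb from either end, were looked for in the 26 members longer than 20 kb. There were 5 of them, in 4 genes (15.4% of the 26), and 30.01% of 10988 other genes over 20 kb, not matched in length, held one in some list. MRPS27, a small-subunit gene of the mitochondrial ribosome, held one of 36 tags over 744 bp in si-Uc003xsl.1 replicate 2, on chromosome 5 at 72307830 to 72308573, and another with a pileup of 6 in control replicate 2 at 72286832 to 72286981. The readthrough gene RPS10-NUDT3 held one of 50 tags over 981 bp in si-Uc003xsl.1 replicate 2, on chromosome 6 at 34391965 to 34392945. That peak lay outside RPS10 itself, with no summit of this list nearer to an end of RPS10 than 25037 bp. RPS10-NUDT3 was the only cytosolic-named member with a deep peak, 1 of 8 longer than 20 kb. MRPL42 and MRPL13 each held a deep peak of control replicate 1, with 6 and 7 tags. The 3 control peaks were 125 to 150 bp wide, while the 2 of si-Uc003xsl.1 were 744 and 981 bp wide.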
